A study of Mus musculus with 2 samples.

Results

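The 10 genes Mrc1, Lyve1, Cd163, Pf4, F13a1, Cbr2, Ms4a7, Stab1, Folr2 and Clec10a are a signature of border-associated macrophages, and all 10 were found by symbol among the 31053 genes of both count matrices. Each library was 1 pool of embryos of the outbred CD1 mouse strain at E15.5, taken from the hypothalamic and thalamic region. In the stressed pool, 5 embryos came from 1 dam that had spent 30 min a day at 4 °C on 5 days from E11.5, and in the control pool 10 embryos came from 1 dam. Cells double positive for the myeloid surface proteins Cd11b and Cd45 had been sorted before droplet capture, and sex was not selected. With 1 library per condition no test between conditions was possible, so every interval is a 95% interval for counting error only and leaves out differences between embryos, litters and libraries.

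Border-associated macrophages live in the meninges, around blood vessels and in the choroid plexus, whereas microglia live within the brain tissue. Both descend from early yolk sac progenitors in the mouse, and monocytes reach the tissue from the blood. The border cells are known for endocytic and scavenger receptors that take up sugars, hyaluronan and haemoglobin from the fluids at these surfaces. In the mouse, the transcription factor PU.1 acts in all of these cells and reads purine-rich DNA, and MAF factors, present in macrophages, read sites that contain TGCTGA.

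Of the signature, Mrc1 encodes the mannose receptor CD206, Stab1 the scavenger receptor stabilin 1, Cd163 the receptor for haemoglobin bound to haptoglobin, and Lyve1 a hyaluronan receptor. Folr2 encodes the folate receptor beta and Clec10a a C-type lectin that binds galactose-type sugars. Pf4 encodes platelet factor 4, a secreted chemokine also called CXCL4, F13a1 the A subunit of coagulation factor XIII, Cbr2 a carbonyl reductase and Ms4a7 a membrane protein of the MS4A family. In the GENCODE M21 annotation of GRCm38, all are protein-coding. Mrc1 (ENSMUSG00000026712) spans chromosome 2 from 14229392 to 14332057, and Stab1 (ENSMUSG00000042286) chromosome 14 from 31139013 to 31168641. Pf4 (ENSMUSG00000029373) spans chromosome 5 from 90772435 to 90773383, and F13a1 (ENSMUSG00000039109) chromosome 13 from 36867178 to 37050244. Chromosome 7 holds Lyve1 (ENSMUSG00000030787) from 110850607 to 110863239 and Folr2 (ENSMUSG00000032725) from 101839988 to 101857194. Chromosome 11 holds Cbr2 (ENSMUSG00000025150) from 120729489 to 120732114 and Clec10a (ENSMUSG00000000318) from 70156197 to 70170834. Cd163 (ENSMUSG00000008845) spans chromosome 6 from 124304656 to 124330527, and Ms4a7 (ENSMUSG00000024672) chromosome 19 from 11321039 to 11336146. F13a1, Stab1 and Folr2 overlap genes on the opposite strand, which the counts cannot separate if strand was not used. Mrc1 holds the microRNA gene Mir511 on its own strand, so strand would not separate reads of the pair.

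Pf4 and F13a1 were often found in the same cells of the control library, and Stab1 was the gene most shared with microglia. For this reason the start regions of Pf4, F13a1 and Stab1 are printed. They run from 250 bases before to 50 bases after an annotated start, 5′ to 3′ on the gene's strand, from RefSeq on GRCm38.p6, and capitals mark matches to GAGGAAGT or TGCTGA on either strand.
Pf4, chr5:90772185-90772484 on the forward strand: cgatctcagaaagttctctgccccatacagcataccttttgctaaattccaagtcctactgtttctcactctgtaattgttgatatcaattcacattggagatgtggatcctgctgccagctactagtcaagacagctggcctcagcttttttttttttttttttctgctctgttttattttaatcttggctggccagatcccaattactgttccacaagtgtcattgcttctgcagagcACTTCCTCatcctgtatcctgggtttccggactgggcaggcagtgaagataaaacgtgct
F13a1, chr13:37049164-37049463 on the reverse strand: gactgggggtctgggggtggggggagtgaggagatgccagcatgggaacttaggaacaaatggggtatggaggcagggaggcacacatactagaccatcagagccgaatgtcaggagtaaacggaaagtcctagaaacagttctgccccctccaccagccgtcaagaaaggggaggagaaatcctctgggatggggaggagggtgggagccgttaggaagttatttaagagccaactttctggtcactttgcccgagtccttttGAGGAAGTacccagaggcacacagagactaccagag
Stab1, chr14:31168592-31168891 on the reverse strand: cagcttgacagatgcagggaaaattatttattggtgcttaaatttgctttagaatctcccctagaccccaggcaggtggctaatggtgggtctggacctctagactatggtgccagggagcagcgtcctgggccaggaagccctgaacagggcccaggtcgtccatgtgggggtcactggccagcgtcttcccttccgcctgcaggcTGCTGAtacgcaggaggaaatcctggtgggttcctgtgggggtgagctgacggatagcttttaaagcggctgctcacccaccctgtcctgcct
RefSeq start regions were matched for 8 of the 10 genes, in 11 windows of 300 bases. Both strands were searched. GAGGAAGT, a PU.1-type sequence, stood in the window of Pf4 and in 1 of 2 windows of F13a1, and in 3.20% of all 32851 windows. TGCTGA stood in windows of Cbr2, Folr2 and Stab1, and in 19.5% of all windows. For F13a1 the printed window is 1 of 2, was picked because it holds GAGGAAGT, and belongs to a start inside the gene. These are letter matches and say nothing of binding.

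Cells were classed from 9 lists of 10 marker genes, and each cell went to the list with the largest share of genes detected. For each signature gene the border-associated macrophage-like class (border-like from here on) was gated on the 9 other genes, so no gene chose its own cells. With all 10 genes, 29 stressed and 81 control cells were border-like, 1127 and 632 microglia-like, 14 and 20 monocyte-like, and 139 and 175 neural-like. Leaving out 1 signature gene at a time gave 26 to 32 stressed and 79 to 84 control border-like cells. The border-like share of both macrophage classes was 2.51% (1.69 to 3.58%, exact binomial) in the stressed library and 11.4% (9.12 to 13.9%) in the control library. Itgam, which encodes the sorted protein Cd11b, stood in the stressed library at 45.2 CPM (counts scaled to a class total of 1000000) in border-like and 116 CPM in microglia-like cells, and in the control library at 28.7 and 132 CPM. The part of the sort in these shares was not tested. The stressed library was deeper, with a median of 5371 UMIs (unique molecules) per border-like cell against 3321 in the control library, and 13 barcodes occurred in both libraries, none of them border-like.

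The border-like cells were chosen by markers, so their marker counts describe the choice and are no check of the label. They had a median of 6 signature genes with a UMI in both libraries, a median of 2 of 10 microglia markers and a median of 0 of 10 monocyte markers. Sall1, a transcription factor gene of microglia, had 2 UMIs in the 29 stressed cells and 0 in the 81 control cells. P2ry12, a microglial purine receptor gene, stood at 33.9 CPM in border-like and 811 CPM in microglia-like cells of the stressed library, and at 47.9 and 911 CPM in the control library. Endothelial Cdh5 and Cldn5 were at 0 in border-like cells of both libraries, and the platelet gene Ppbp had 1 UMI in stressed and 3 UMIs in control border-like cells. The full list of 10 vascular markers stood at 84.8 CPM in stressed and 124 CPM in control border-like cells, from 1 and 3 of its genes. In microglia-like cells that list stood at 39.5 and 31.8 CPM. Some cells carried markers of both classes: 12 of 29 stressed and 17 of 81 control border-like cells had 3 or more microglia markers. These markers include Cx3cr1, which stood at 463 CPM in stressed and 431 CPM in control border-like cells. The parts of depth and of droplets with a pair of cells in these counts were not tested. The stressed class also included a cell with 7 of 10 monocyte markers. The 10 granulocyte markers had 136 UMIs, or 769 CPM, in stressed border-like cells, with up to 3 of the genes in 1 cell. In control border-like cells they had 1 UMI. Genes of border-associated macrophages that the choice did not use are given with the related genes further on.

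All 10 signature genes stood at least 2 times higher in border-like than in microglia-like cells, in both libraries. Among all genes with at least 50 CPM in either class, counted with all 10 signature genes in the gate, 8.88% passed 2 times higher in the stressed library and 7.38% in the control library. With that minimum, 8 of 8 signature genes passed in the stressed library and 9 of 9 in the control library. Each of these genes helped to choose the border-like cells in that gate and could meet the minimum there alone. These counts thus describe the choice and are no check of the label. The median log2 ratio of the 10 genes was 5.48 in the stressed library and 5.33 in the control library, against −0.02 and −0.04 over all genes. The size of the gap differed widely between genes, and the genes fell into those nearly limited to border-like cells and those that microglia-like cells also carried.

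**Figure D1:**
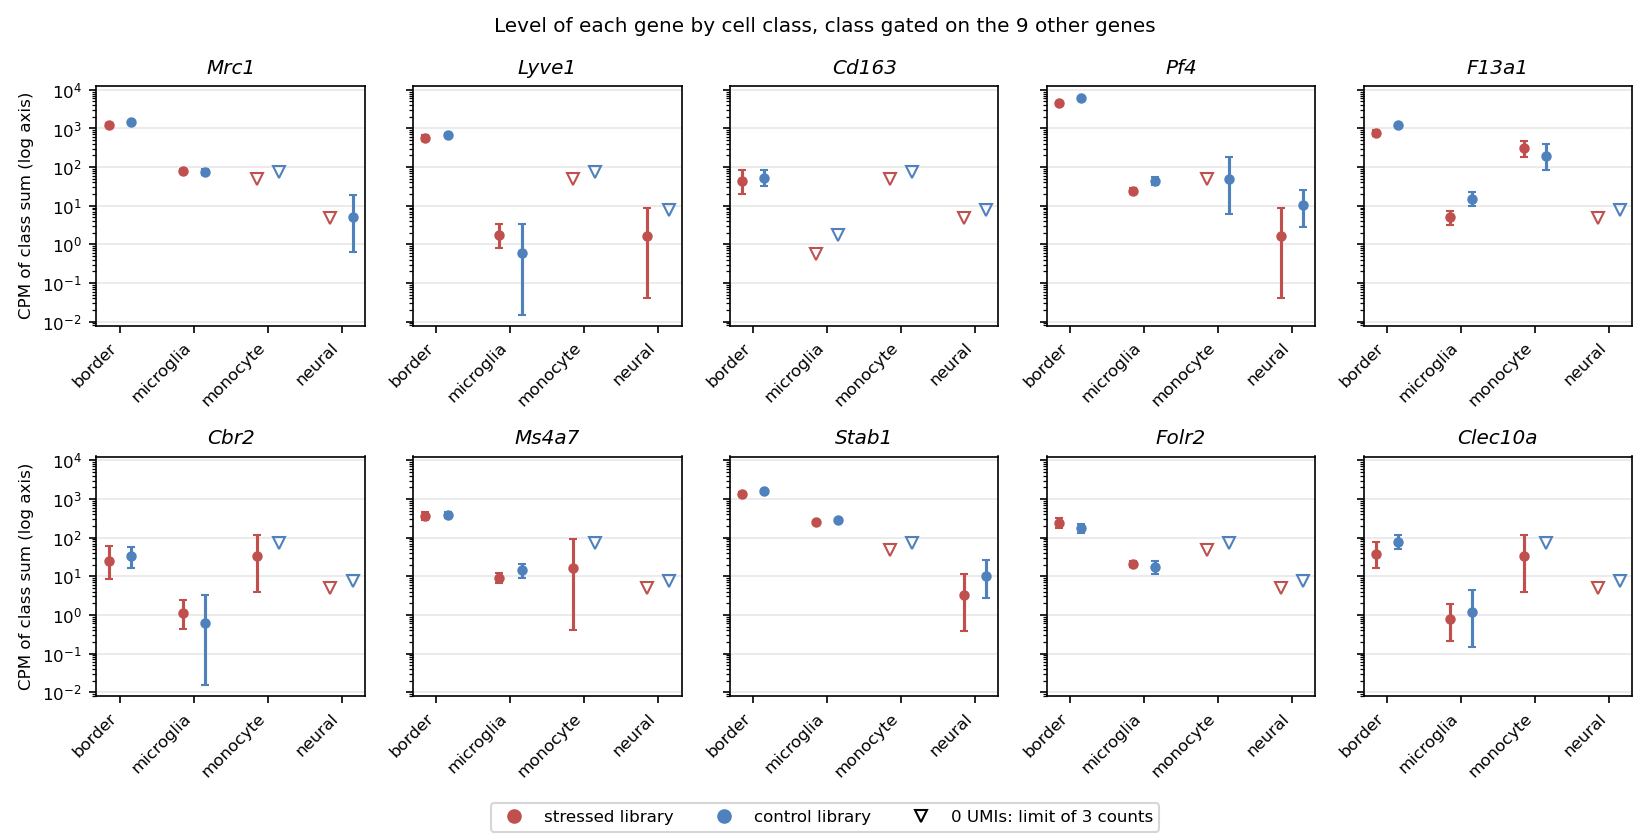
Level of each signature gene in border-like, microglia-like, monocyte-like and neural-like cells, in CPM of the class sum on a log axis. Points are libraries with 95% Poisson intervals and open triangles mark classes with 0 UMIs, at the level of 3 counts. Stab1 and Mrc1 have the narrowest gaps between border-like and microglia-like cells together with Folr2, and F13a1 is the gene with a clear level in monocyte-like cells.

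Stab1 and Mrc1 were the receptors with the highest levels in microglia-like cells. Stab1 stood at 1344 CPM (1175 to 1530, exact Poisson) in border-like and 247 CPM (234 to 261) in microglia-like cells of the stressed library, and at 1575 CPM (1437 to 1722) and 279 CPM (254 to 305) in the control library. The log2 ratio of border-like over microglia-like cells was 2.44 (2.23 to 2.65) in the stressed and 2.50 (2.31 to 2.68) in the control library. Both libraries thus gave Stab1 the narrowest gap of the 10 genes.

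Mrc1 stood at 1248 CPM (1085 to 1429) in border-like and 80.6 CPM (73.1 to 88.7) in microglia-like cells of the stressed library. It stood at 1441 CPM (1308 to 1583) in border-like and 75.8 CPM (63.2 to 90.1) in microglia-like cells of the control library. The log2 ratios were 3.95 (3.71 to 4.19) and 4.25 (3.96 to 4.55), and the intervals overlap. Every one of the 26 stressed border-like cells gated without Mrc1 had a Mrc1 UMI, with 1 to 20 UMIs per cell and a median of 7.5. Of 79 such control cells 74 had one, with 0 to 18 UMIs and a median of 4.

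Microglia-like cells were so numerous that they held much of the receptor message. They accounted for 82.6% of all Stab1 UMIs of the stressed library (80.6 to 84.4%) and 47.3% in the control library (44.2 to 50.4%), against 14.5% and 48.2% in border-like cells. For Mrc1 the microglia-like part was 65.5% in the stressed and 22.2% in the control library, against 32.4% and 74.9% in border-like cells. The gap between the libraries in these parts moves with the number of border-like cells, while the levels per class were close.

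**Figure D2:**
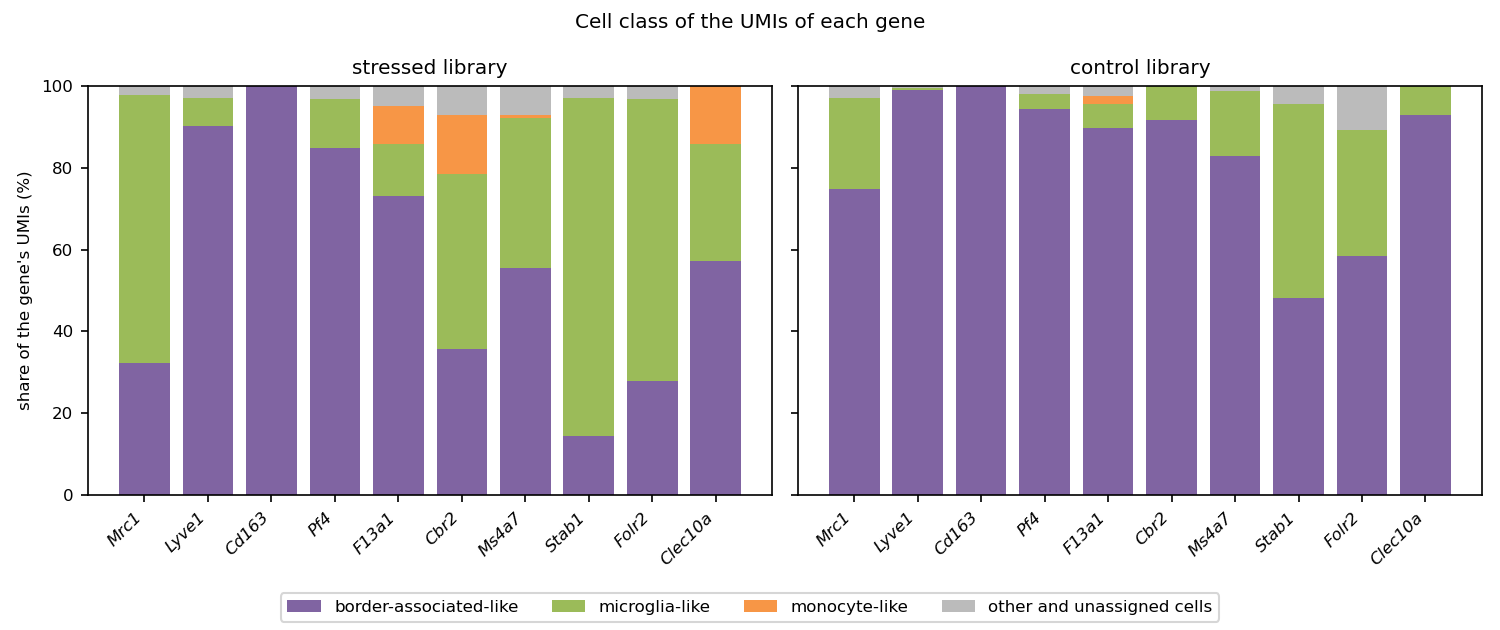
Share of all UMIs of each signature gene that lay in border-like, microglia-like, monocyte-like and other or unassigned cells, in % and by library. Stab1, Mrc1 and Folr2 have the largest microglia-like parts in the control library (47.3%, 22.2% and 30.9%), and Cd163 has none in either library.

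The microglial Stab1 signal was spread over many cells. Each cell was thinned to 1000 UMIs for equal depth, which left out 1 stressed and 27 control microglia-like cells. The cell classes had been set before thinning, at full depth. Stab1 was then found in 20.2% of stressed (228 of 1129, 17.9 to 22.7%) and 22.5% of control microglia-like cells (137 of 608, 19.3 to 26.1%). In neural-like cells, which lack these genes and serve as a measure of free RNA, it was found in 2 of 134 stressed and 0 of 150 control cells, and the control count allows a share of up to 2%. Neural-like cells had median depths of 3220 and 1586 UMIs before thinning, against 4035 and 2221 UMIs in microglia-like cells. Mrc1 was found in 6.11% of stressed (4.79 to 7.67%) and 5.26% of control microglia-like cells (3.63 to 7.35%), against 0 of 134 and 1 of 150 neural-like cells. The 5 microglia-like cells with most UMIs of the gene held 6.94% of its stressed and 10.2% of its control microglial UMIs for Stab1, and 15.4% and 21.1% for Mrc1.

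Among thinned microglia-like cells, Stab1 was found in 31.4% of stressed cells with a Mrc1 UMI (22 of 70, 20.9 to 43.6%) and 19.7% of those without one (17.3 to 22.2%). The control shares were 33.3% (11 of 33, 18.0 to 51.8%) and 22.0% (18.7 to 25.6%). These cells come from 1 library each, and the intervals overlap within both. Mrc1 was found in 10.4% of cycling control microglia-like cells, those with at least 2 of 10 S and G2/M phase genes, against 3.52% of other ones (6.06 to 16.3% and 2.03 to 5.66%). In the stressed library these shares were 7.59% and 5.39%, with overlapping intervals (5.10 to 10.8% and 3.90 to 7.25%). For Stab1 the shares in cycling and other cells were 23.4% and 22.2% in the control and 19.0% and 20.8% in the stressed library. Its intervals overlap in both libraries. Cycling calls were made before thinning.

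Folr2 lay near Mrc1 in its gap. It stood at 243 CPM (176 to 326) in border-like and 20.8 CPM (17.1 to 25.1) in microglia-like cells of the stressed library, and at 175 CPM (132 to 228) and 17.3 CPM (11.6 to 24.8) in the control library. The log2 ratios were 3.54 (3.00 to 4.06) and 3.34 (2.67 to 4.04). After thinning, 1.51% of stressed (0.880 to 2.4%) and 0.989% of control microglia-like cells (0.364 to 2.14%) had a Folr2 UMI, against 0 of 134 and 0 of 150 neural-like cells, which allow up to 2.24% and 2%. At this depth the microglial share of Folr2 cannot be set above the neural-like limit. Without thinning, neural-like cells had 0 Folr2 UMIs, with an upper limit of 5.96 CPM in the stressed and 9.48 CPM in the control library. In each library this limit lies below the microglia-like interval in CPM given above.

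Cd163, Lyve1 and Clec10a were receptors with few or no UMIs in microglia-like cells. Cd163 had 9 UMIs in 5 of 32 stressed and 18 UMIs in 10 of 84 control border-like cells, and 0 UMIs in microglia-like, monocyte-like and neural-like cells of both libraries. Its level was at least 75.6-fold higher in stressed and at least 29.7-fold higher in control border-like than in microglia-like cells, with the microglial sum set to 3 counts. All of its UMIs in both libraries lay in border-like cells.

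Lyve1 stood at 581 CPM (482 to 696) in border-like and 1.73 CPM (0.789 to 3.28) in microglia-like cells of the stressed library. All 9 of its stressed microglial UMIs lay in 1 cell. In the control library it stood at 678 CPM (592 to 773) in border-like cells, and microglia-like cells had 1 UMI. The log2 ratio was 8.40 (7.42 to 9.56) in the stressed and 10.15 (7.66 to 15.46) in the control library, the widest gap in both among the 9 genes with a microglial UMI. Yet Lyve1 marked only part of the class: 14 of 31 stressed and 51 of 83 control border-like cells had a UMI, and 5 cells held 70.6% of the stressed UMIs.

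Clec10a had 8 UMIs in border-like and 4 in microglia-like cells of the stressed library, or 38.7 CPM (16.7 to 76.2) and 0.767 CPM (0.209 to 1.96). The control library had 26 and 2 UMIs, or 79.1 CPM (51.7 to 116) and 1.2 CPM (0.145 to 4.32). The log2 ratios were 5.66 (3.76 to 7.84) and 6.05 (4.05 to 9.17), with wide intervals from few UMIs.

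Pf4, the chemokine of the list, was mostly a border-like transcript. It stood at 4505 CPM (4211 to 4815) in border-like and 23.5 CPM (19.6 to 28.1) in microglia-like cells of the stressed library, and at 6295 CPM (6020 to 6579) and 42.8 CPM (33.5 to 53.9) in the control library. The log2 ratios were 7.58 (7.31 to 7.86) and 7.20 (6.86 to 7.56). Cells differed widely in it: stressed border-like cells had 0 to 126 UMIs with a median level of 1412 CPM per cell, and control cells 0 to 150 UMIs with a median of 4811 CPM. In the stressed class 9 of 29 cells had no Pf4 UMI, against 6 of 80 in the control class.

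The Pf4 UMIs of microglia-like cells lay in few cells. The 5 highest cells held 68.3% of them in the stressed and 68.1% in the control library, and up to 45 and 26 UMIs lay in 1 cell. At equal depth 0.976% of stressed (0.488 to 1.74%) and 1.98% of control microglia-like cells (1.03 to 3.43%) had a Pf4 UMI, against 0 of 134 and 1 of 150 neural-like cells. After thinning, these low shares cannot be set above the neural-like ones, whose limit or interval reached 2.24% and 3.66%. Without thinning, Pf4 stood at 1.62 CPM (0.041 to 9.0) in stressed and 10.3 CPM (2.8 to 26.3) in control neural-like cells. In each library this interval lies below the microglia-like one given above, which rests largely on the few high cells.

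F13a1 was the signature gene with the clearest level in monocyte-like cells. It stood at 767 CPM (649 to 900) in border-like, 4.97 CPM (3.25 to 7.29) in microglia-like and 309 CPM (186 to 483) in monocyte-like cells of the stressed library. In the control library it stood at 1204 CPM (1088 to 1331) in border-like, 14.9 CPM (9.67 to 22.1) in microglia-like and 199 CPM (86.0 to 393) in monocyte-like cells. The log2 ratio of border-like over monocyte-like cells was 1.31 (0.62 to 2.08) in the stressed and 2.60 (1.60 to 3.82) in the control library. A UMI was found in 9 of 14 stressed and 5 of 20 control monocyte-like cells, with at most 7 and 3 UMIs per cell, and in 0 neural-like cells of either library. After thinning, 5 of 14 stressed monocyte-like cells (35.7%, 12.8 to 64.9%) and 3 of 20 control ones (15%, 3.21 to 37.9%) still had one. In microglia-like cells the 5 highest cells held 25 of 26 stressed and 24 of 25 control F13a1 UMIs.

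Other signature genes had 0 to 2 UMIs in monocyte-like cells. Mrc1, Stab1, Lyve1, Folr2 and Cd163 had 0 UMIs in the 14 stressed and the 20 control monocyte-like cells. Pf4 had 0 and 2 UMIs there, Ms4a7 1 and 0, Cbr2 2 and 0, and Clec10a 2 and 0. For Cbr2 and Clec10a the stressed library thus showed no gap between border-like and monocyte-like cells. Cbr2 stood at 25.6 and 32.5 CPM, with a log2 ratio of −0.35 (−2.96 to 3.04). Clec10a stood at 38.7 and 32.5 CPM, with a log2 ratio of 0.25 (−2.08 to 3.52). With a sum of 0 set to 3 counts, border-like cells were at least 25.6-fold higher than monocyte-like cells in Mrc1 in the stressed library and at least 19.3-fold higher in the control library. For Stab1 these bounds were 27.5-fold and 21.1-fold, and for Lyve1 11.9-fold and 9.08-fold. The control bound for Clec10a was only 1.06-fold, and Cbr2 gave no control ratio. With all 10 genes in the gate, 7 of the 8 signature genes with at least 50 CPM in either class stood at least 2 times higher than in monocyte-like cells in both libraries, against 18.9% and 23.1% of all genes with that level. None of the 8 stood 2 times lower, against 21.4% and 20.4% of all genes. Since these genes helped to choose the border-like cells in that gate, the counts describe the choice and are no check of the label. The monocyte-like sums hold 61473 and 40159 UMIs, so 3 counts correspond to 48.8 and 74.7 CPM, and lower levels were not detectable.

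Ms4a7 and Cbr2 completed the list. Ms4a7 stood at 357 CPM (279 to 450) in border-like and 9.0 CPM (6.61 to 12.0) in microglia-like cells of the stressed library, and at 386 CPM (322 to 459.5) and 14.3 CPM (9.19 to 21.3) in the control library. Its log2 ratios were 5.31 (4.76 to 5.87) and 4.75 (4.11 to 5.45), and 5 cells held 83.3% of the 24 control microglial UMIs. Cbr2 had 5 UMIs in border-like and 6 in microglia-like cells of the stressed library, and 11 and 1 in the control library. Its log2 ratios of 4.48 (2.43 to 6.45) and 5.77 (2.99 to 11.20) rest on these few UMIs.

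At equal depth, border-like cells carried differing parts of the signature, with the class itself set before thinning at the unequal depths given above. The median share of cells per gene was 41.9% in the stressed and 39.0% in the control library. Mrc1 was found in 69.2% of stressed (48.2 to 85.7%) and 76.9% of control border-like cells (66.0 to 85.7%), Pf4 in 65.5% (45.7 to 82.1%) and 77.5% (66.8 to 86.1%), and Stab1 in 59.3% (38.8 to 77.6%) and 75.9% (65.0 to 84.9%). F13a1 was found in 48.4% of stressed (30.2 to 66.9%) and 67.9% of control border-like cells (56.6 to 77.9%), Ms4a7 in 51.6% (33.1 to 69.8%) and 36.6% (26.2 to 48.0%), and Lyve1 in 35.5% (19.2 to 54.6%) and 41.5% (30.7 to 52.9%). Folr2 reached 13.8% and 12.5%, and Cd163, Clec10a and Cbr2 each lay at 12.2% or below. The intervals of the libraries overlap for every gene. Without thinning the median share of the 10 genes was 66.6% and 62.7%.

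**Figure D3:**
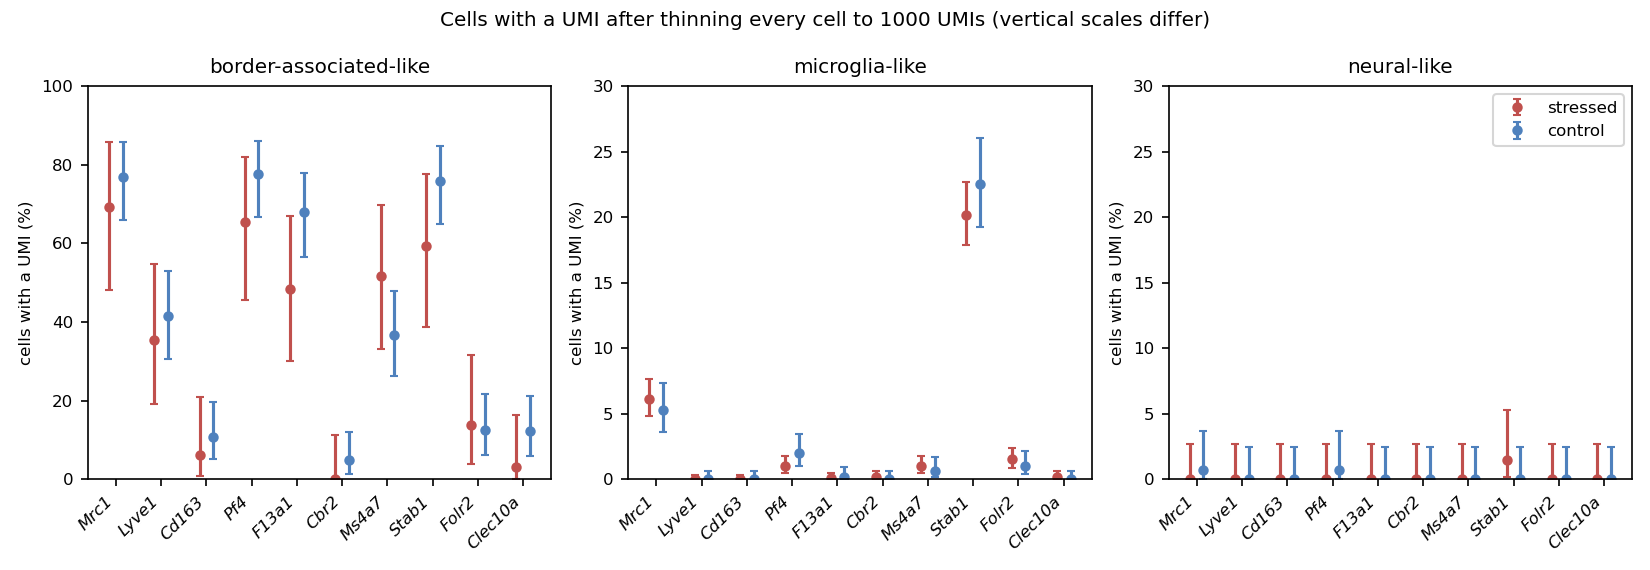
Share of cells with a UMI of each signature gene after each cell was thinned to 1000 UMIs, in %, with 95% binomial intervals, by class and library. The vertical scale of the border-like panel reaches 100% and that of the others 30%. Stab1 in microglia-like cells (20.2% and 22.5%) stands above its share in neural-like cells, and Mrc1 (6.11% and 5.26%) is the next gene.

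Detection of Pf4 and F13a1 went together in border-like cells of the control library. F13a1 was found there in 84.7% of thinned border-like cells with a Pf4 UMI (50 of 59, 73.0 to 92.8%) and 11.8% of those without one (2 of 17, 1.46 to 36.4%). In the stressed library these shares were 61.1% (11 of 18, 35.7 to 82.7%) and 33.3% (3 of 9, 7.49 to 70.1%), with overlapping intervals. All 11 stressed cells with a Lyve1 UMI had Pf4, against 44.4% of those without Lyve1 (8 of 18), and in the control library 91.2% (31 of 34) and 67.4% (31 of 46). The Lyve1 intervals for Pf4 do not overlap in the stressed library (71.5 to 100% and 21.5 to 69.2%) and do in the control library (76.3 to 98.1% and 52.0 to 80.5%). All pairs of the 10 genes were counted, and no rule set beforehand chose the pairs given here. In stressed border-like cells F13a1 was also found in 81.8% with and 31.6% without Lyve1. Ms4a7 went the other way with Mrc1 there, at 58.8% with and 75% without it.

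The number of signature genes per cell, which the gate itself used, is given as a description of the classes. With all 10 genes in the gate, 16 of 29 stressed and 49 of 81 control border-like cells had 6 or more, where the gate asks for 3. Of the microglia-like cells 43.9% had none in the stressed and 51.7% in the control library, and 39.2% and 39.1% had 1. A few, 52 stressed (4.61%) and 19 control (3.01%), had 3 or more. Their median depth was 7546 UMIs in the stressed and 5616 in the control library, against 3416 and 1902 UMIs for microglia-like cells with none. The part of droplets with a pair of cells was not tested, and without the highest 3.5% of doublet scores the median log2 ratio of border-like over microglia-like cells was 5.42 in the stressed and 5.31 in the control library.

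**Figure D4:**
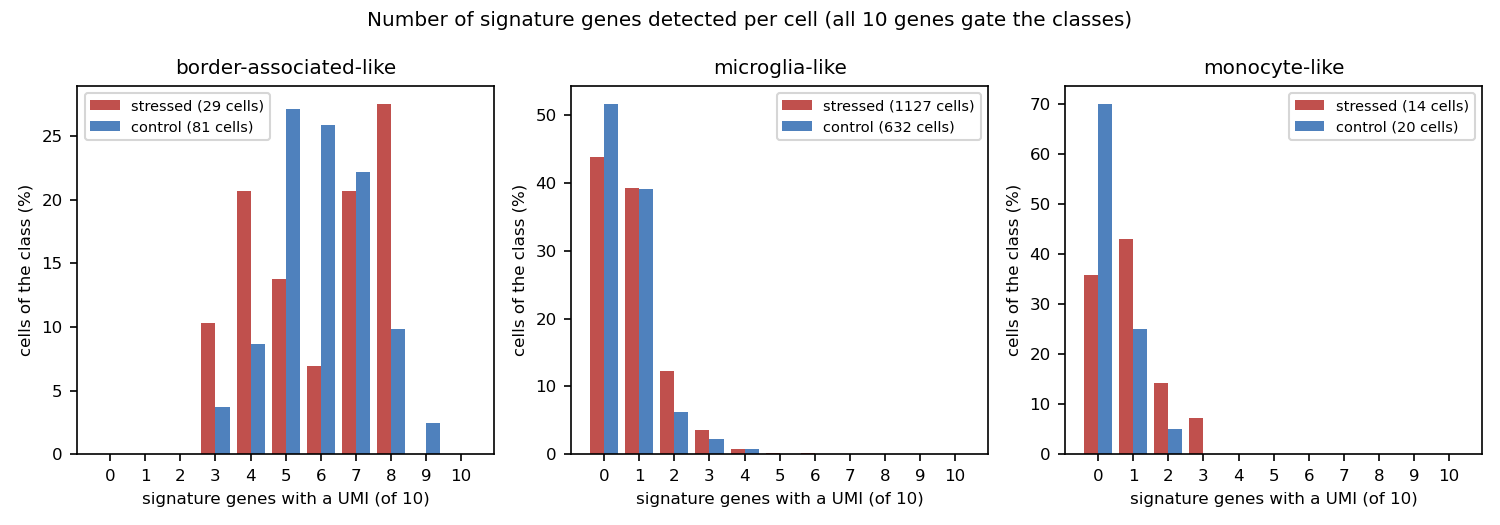
Number of signature genes with a UMI per cell, as a share of the cells of each class in %, by library. Border-like cells have 3 to 9 genes, with 3 set by the gate, and most microglia-like cells have 0 or 1.

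Between the conditions, the signature genes of border-like cells differed little. The median log2 ratio of stressed over control was −0.26, against −0.03 over all genes with at least 50 CPM in either library. Of the genes with that level, 4.9% were past 2 times on the higher and 5.94% on the lower side, counted with all 10 genes in the gate. In that gate 0 of 9 signature genes were past 2 times on either side. Gated on the other genes, Clec10a lay just past 2 times lower, at −1.03 (−2.39 to 0.15) with 8 and 26 UMIs, and with all 10 in the gate it was at −0.88. Pf4 was lower at −0.48 (−0.60 to −0.37) and F13a1 at −0.65 (−0.93 to −0.38), whereas Folr2 was at 0.47 (−0.13 to 1.07). The other 6 genes lay between −0.36 and −0.11, with intervals that include 0.

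The Pf4 and F13a1 differences varied with the cells admitted. Among border-like cells with at least 5 of the 9 other signature genes, F13a1 was at −0.05 (−0.36 to 0.24), with 1352 CPM in 16 stressed and 1404 CPM in 55 control cells. Pf4 was at −0.27 (−0.39 to −0.15), with 7185 CPM in 18 stressed and 8655 CPM in 50 control cells, and the median of the 10 genes was −0.08. The libraries also differed in sex make-up, in border-like and in microglia-like cells. The Y-linked genes gave 0 UMIs in stressed and 29 in control border-like cells, and 27 of 29 and 25 of 81 cells had Xist, the transcript of the inactive X chromosome, with no Y-linked UMI. Among those cells F13a1 was at −0.12 (−0.52 to 0.28) and Pf4 at −0.19 (−0.35 to −0.03). The parts of cell make-up, sex and depth in the differences cannot be told apart from maternal stress with 1 litter each.

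**Figure D5:**
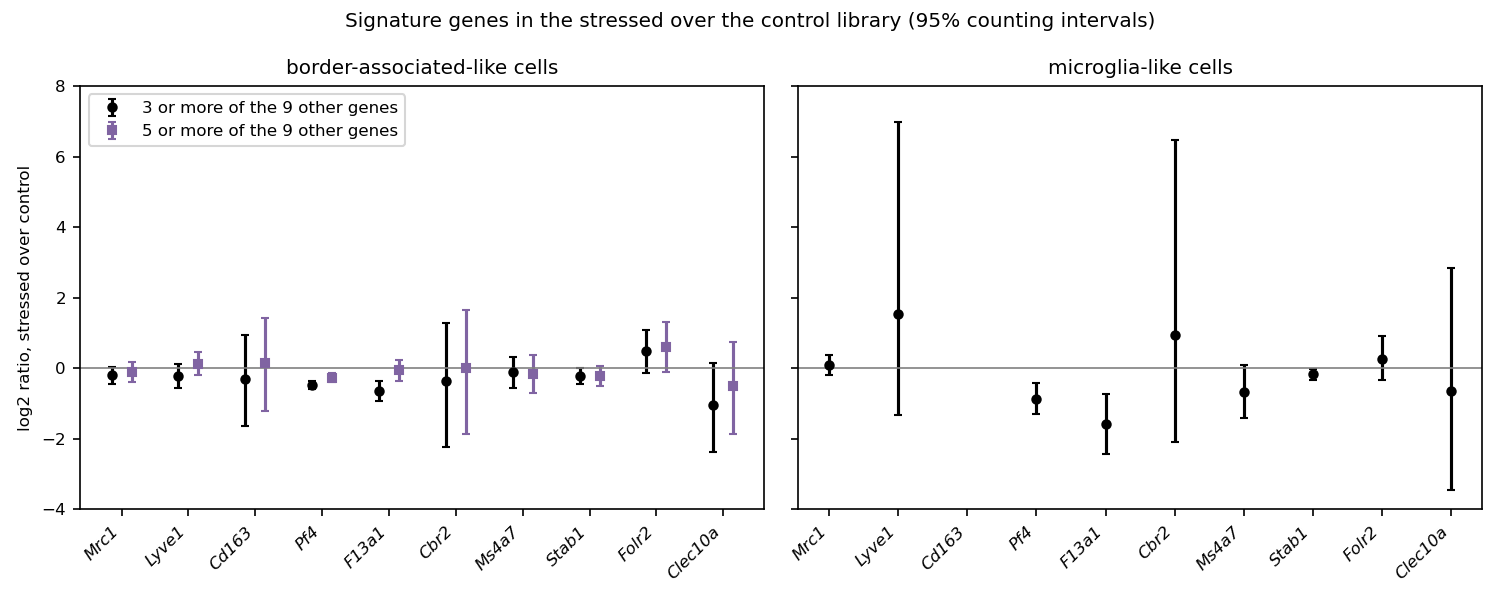
Log2 ratio of the stressed over the control library for each signature gene in border-like (left) and microglia-like cells (right), with 95% counting intervals. Circles are cells gated on at least 3 of the 9 other genes and squares on at least 5, and Cd163 has no value in microglia-like cells because it had 0 UMIs. Pf4 and F13a1 lie below 0 with circles (−0.48 and −0.65), and F13a1 lies near 0 with squares (−0.05).

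In microglia-like cells the shared receptors were also close between libraries. Mrc1 was at 0.09 (−0.20 to 0.39), Stab1 at −0.17 (−0.33 to −0.02) and Folr2 at 0.27 (−0.33 to 0.91), against −0.06 over all genes with at least 50 CPM. Past 2 times lay 0.412% of the genes with that level on the higher and 0.412% on the lower side, and neither Mrc1 nor Stab1, the 2 signature genes with that level. Stab1 was at −0.09 with TMM factors. F13a1 at −1.59 (−2.44 to −0.73) and Pf4 at −0.86 (−1.29 to −0.42) rest on the few high cells described above, since 5 cells held 25 of 26 stressed F13a1 UMIs. Y-linked genes gave 1 UMI in the 1127 stressed and 173 UMIs in the 632 control microglia-like cells. Xist with no Y-linked UMI was found in 1065 and 218 of these cells. The part of sex in the microglial ratios cannot be told apart from maternal stress.

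Other genes known from border-associated macrophages, 25 in a list that holds no signature gene, were mostly higher in border-like cells. The list was chosen with earlier results of these data known, so its counts are no independent check of the label. Of 19 measured at 50 CPM in the stressed library 14 were at least 2 times higher in border-like than in microglia-like cells, of 18 in the control library 13, against 8.88% and 7.38% of all genes. None was at least 2 times lower in either library, against 11.4% of all genes in the stressed library and 339 of 2941 genes in the control library. Hmox1, the gene of a haem-degrading enzyme, had log2 ratios of −0.35 (−0.81 to 0.08) and 0.39 (0.01 to 0.76), Gas6, a ligand gene for receptors of dying cells, at 0.71 and 0.47, and Apoe, the apolipoprotein E gene, at 0.98 and 0.57. The median log2 ratio was 2.33 and 2.61, against −0.02 and −0.04 over all genes. Ccl24, a chemokine gene, stood at 458 CPM in border-like and 10.9 CPM in microglia-like cells of the stressed library, and at 453 and 7.20 CPM in the control library. Cd36, a scavenger receptor gene, stood at 209 and 4.22 CPM in the stressed and 156 and 3.00 CPM in the control library. Cd209f, a lectin gene, had 19 stressed and 31 control UMIs in border-like cells and 0 in microglia-like cells. It lay in 4 of 29 stressed and 6 of 81 control border-like cells, and 1 cell held 9 of the stressed and 1 cell 22 of the control UMIs. Without those cells its level was 57.6 CPM in the stressed and 28.9 CPM in the control library, against 107 and 98.9 CPM with them. Dab2, an endocytic adaptor gene, stood at 1221 and 124 CPM in the stressed and 1595 and 139 CPM in the control library, with log2 ratios of 3.30 and 3.52. Under the minimum level, Ms4a4a, a relative of Ms4a7, had log2 ratios of 4.88 and 3.73 from 7 and 5 UMIs in border-like cells, and Siglec1, the sialoadhesin gene, 4.30 and 3.41 from 2 UMIs in each library, which in the control library lay in 1 cell.

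Few genes of macrophages in general were past 2 times on either side. Of 15 such genes, all measured, 0 were at least 2 times higher in border-like cells of either library, and 1 stressed and 3 control genes were at least 2 times lower, set beside the 11.4% of genes and the 339 of 2941 genes given above. Itgam was lower in both, at log2 ratios of −1.36 (−2.58 to −0.37) and −2.20 (−3.35 to −1.25). The control library added Mertk (−1.76) and Trem2 (−1.41), receptor genes for dying cells and lipids that were at −0.63 and −0.69 in the stressed library. Fcer1g, an Fc receptor adaptor gene, was at 0.86 and 0.71. None of 7 MHC class II genes reached 50 CPM in either class of either library, and together they had 4 stressed and 13 control UMIs in border-like cells.

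The genes most like the signature were sought among 984 genes with at least 100 CPM in border-like cells of both libraries, by the lower of their 2 log2 ratios of border-like over microglia-like cells. The 10 highest were Tcf24, S100a6, Cd36, Ccl24, Ednrb, Fcna, Ifi27l2a, Serpinb6a, S100a10 and Clec4a1. Tcf24, which encodes a transcription factor, stood at 187 CPM in border-like and 3.26 CPM in microglia-like cells of the stressed library and at 198 and 1.80 CPM in the control library, with 0 UMIs in monocyte-like cells. Ednrb, the endothelin receptor B gene, stood at 198 and 6.52 CPM in the stressed and 159.5 and 4.80 CPM in the control library. Fcna, the gene of the secreted lectin ficolin A, stood at 220 and 9.59 CPM in the stressed and 156 and 7.80 CPM in the control library, again with 0 UMIs in monocyte-like cells.

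A subset of these likenesses was shared with monocytes. S100a6, a calcium-binding protein gene, stood at 294 CPM in stressed and 124 CPM in control border-like cells but at 1253 and 3436 CPM in monocyte-like cells. It was found in 4 of 29 stressed and 9 of 81 control border-like cells. Ifi27l2a, an interferon-induced gene, was at 2570 and 1743 CPM in monocyte-like cells, and S100a10 at 878 and 896 CPM. Clec4a1 was at 195 and 249 CPM in monocyte-like cells, against 136 and 134 CPM in border-like ones. Ccl24 was at 260 CPM in stressed monocyte-like cells, from 16 UMIs, and had 0 UMIs in control ones. Without the border-like cell with most UMIs of the gene, S100a6 was at 186 CPM in stressed and 77.9 CPM in control border-like cells, and S100a10 at 65.9 CPM, against 113 CPM with it, in stressed ones. Tcf24, Serpinb6a and Fcna overlap genes on the opposite strand.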

How the data were processed

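The authors deposited raw UMI counts per gene and barcode from 10x Genomics Chromium 3′ v3 libraries. The software version was 3.0.0, per the file headers. The submitters' processing notes name GRCm38.p5 (mm10), Cell Ranger 3.0.0, Seurat 2.4 and STAR and give no roles. Per the labels' protocols 9055 stressed and 8834 control cells were sorted, about 6000 loaded, and 1467 and 1156 recovered, which are the barcodes in the files. The libraries held 6582188 and 2833015 UMIs, with medians of 3767 and 1947.5 per barcode. The signature genes and gene lists were chosen with earlier results of these data known.

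Cells under 500 genes or over 10% mitochondrial UMIs were left out, which kept 1407 stressed and 1068 control cells. Each went to the list of 10 markers with the largest share of genes detected, with at least 3, and ties and the rest (82 and 149 cells) stayed unassigned. Doublets were kept: Scrublet's own threshold marked 3 and 2 cells, so an alternative removed the highest 3.5% of scores. CPM is the sum of counts over a class divided by the class total. Sums have exact Poisson, shares exact Clopper-Pearson and ratios exact conditional intervals at 95%. They cover counting error only. A sum of 0 was set to 3 counts, and a share of 0 allows 3 cells. A gene was called past 2 times at 50 CPM in either class. Ratio and gate steps were tested on simulated data. Other genes were named by rule: up to 6 of the border list by largest log2 ratio and the 10 most alike. Genes of the other lists, and Hmox1, Gas6 and Apoe, were named after their values were seen, and the values without 1 cell were added then. Tools were Python 3.11.15, scanpy 1.11.5, edgeR 4.0.16 (TMM factors only) and DESeq2 1.42.0 (size factors only).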

Additional observations from a re-analysis of the deposited data

Results flagged for a closer look

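Mrc1, Lyve1 and Cbr2 were drawn out because the stressed over control log2 ratio was negative in border-like and positive in microglia-like cells. Mrc1 was at −0.21 (−0.45 to 0.03) in border-like and 0.09 (−0.20 to 0.39) in microglia-like cells. Lyve1 was at −0.22 (−0.56 to 0.11) and 1.53 (−1.32 to 6.98), the microglial value resting on 9 UMIs in 1 stressed cell and 1 UMI in the control library. Cbr2 was at −0.36 (−2.23 to 1.29) and 0.94 (−2.11 to 6.46), from 5 and 11 UMIs in border-like and 6 and 1 UMIs in microglia-like cells. All of these intervals include 0, and the difference between the classes was not tested.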

How the results depend on the processing

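Each condition was 1 pool of 1 litter, and intervals cover counting error only. No paired analysis was possible because each condition has 1 library and no comparison comes from a test. All 10 genes were at least 2 times higher in border-like than in microglia-like cells under every alternative that gave a value, the lowest log2 ratio being 1.70 for control Folr2 with Leiden clusters. Those clusters, built without the signature genes, joined monocyte-like cells to the border-like ones, so they gave no value against monocytes. They gave a border-like share of macrophages of 3.98% in the stressed library, a stressed median share of cells with a UMI of 24.5%, a microglial stressed over control median of −0.93, and Lyve1 there at −2.64, turning its direction. The control share was 16.5% with a filter of 1000 genes and 5% mitochondrial UMIs and 14.0% when the gate used thinned cells. Without cells holding 3 or more markers of both macrophage classes, the stressed share was 1.56% and the stressed median over microglia 7.35. The border-like over monocyte-like median of the stressed library was 2.83 with 4 markers for a class, 1.53 with thinned cells, 2.55 in cells with Xist and no Y-linked UMI, 2.58 without cycling cells, 3.00 when CPM were averaged over cells, 3.18 with TMM factors and 3.09 with all 10 genes in the gate. In the control library it was 2.21 with the stricter cell filter and 1.99 in cells with Xist alone. The microglial stressed over control median was −0.53 in cells with Xist alone, −0.50 without cycling cells, 0.17 with the mean of per-cell CPM and 0.19 with all 10 genes in the gate, so it has no stable sign. Unthinned median shares were 66.6% and 62.7%. In border-like cells Pf4 ranged from −0.92 to −0.06 and F13a1 from −1.01 to −0.05 over 15 alternatives, negative in all of them. Removal of the 13 shared barcodes, of cycling cells and of cells with under 5 other signature genes were chosen after seeing the data. At 1.5 times, 17.8% of all genes in the stressed and 14.8% in the control library were higher in border-like than in microglia-like cells. With 29 stressed cells, differences in Cd163, Cbr2 and Clec10a were not detectable at this depth.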

Other observations

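Barcodes left out by the cell filter held some signature transcripts. In the stressed library 60 such barcodes had 17 UMIs of the 10 genes, or 158 CPM (92.1 to 253), and 1 barcode had 3 or more of the genes. In the control library 88 barcodes had 60 UMIs, or 635 CPM (484 to 817), of which 31 were Pf4, and 3 barcodes had 3 or more of the genes.

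Border-like cells also carried cell cycle genes. Of 10 S and G2/M phase genes, 1 of 8 measured in the stressed and 3 of 9 in the control library were at least 2 times higher in border-like than in microglia-like cells, against 8.88% and 7.38% of all genes. The gene past 2 times in both was Ube2c, of the machinery that ends mitosis, at 418 and 189 CPM in the stressed and 488 and 193 CPM in the control library. In the stressed library 1 cell held 55 of its 74 border-like UMIs, and without that cell the log2 ratio was −0.71 (−1.45 to −0.06), against 1.14 (0.78 to 1.49) with it. Without the highest cell of the control library, with 28 of 153 UMIs, it was 1.10 (0.79 to 1.40), against 1.34 with it. At equal depth, 10.3% of stressed (3 of 29, 2.19 to 27.4%) and 15% of control border-like cells (12 of 80, 8.0 to 24.7%) had at least 2 of these genes, against 14.7% (12.6 to 16.9%) and 16.0% (13.2 to 19.2%) of microglia-like cells.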
